A study of Mus musculus with 5 samples.

Results

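AP-1 and BATF factors are basic leucine zipper proteins, which bind DNA in pairs. FOS proteins (Fos, Fosb, Fosl2) pair with JUN proteins (Jun, Junb, Jund), and BATF proteins (Batf, Batf3) also pair with JUN and act with IRF factors in T cells. ATF3 is induced by cell stress, and MAFF is a small MAF protein without an activation domain of its own. Fos, Fosb, Jun, Junb, Atf3 and Maff are immediate early genes, transcribed soon after T cell receptor, growth factor or stress signals, whereas Batf is known as a lasting regulator of effector and tissue regulatory T cells and of follicular helper T cells. All 10 genes were chosen by symbol, and each had 1 record among 57186 annotated genes in the abundance table of every library.

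The cells were splenic Tfr (T follicular regulatory) cells of mice, Foxp3-expressing CD4 T cells that enter the B cell follicle, sorted as live CD4+ Foxp3+ CXCR5+ PD-1+ ICOS+ cells. All mice had received imiquimod, a TLR7 agonist, 21 days earlier, and no untreated group was analysed here. The 3 WT libraries came from Foxp3-GFP reporter mice and the 2 Cebpa_KO libraries from Foxp3-Cre Cebpa-flox/flox mice, in which Cre expressed from Foxp3 deletes Cebpa in regulatory T cells. The Foxp3 allele therefore also differed between the groups, and ages were not given. Cells of several mice were pooled for a library, so p-values rest on differences among pools, not single mice, and fewer cells of a type cannot be told apart from less RNA per cell. Levels are TPM, a measure per transcript length and per library, divided by a scaling factor for each library (0.984 to 1.04).

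Aligned depth was 6.76 to 7.08 gigabases per library. Cebpa fell to 0.317 and 0.550 scaled TPM in Cebpa_KO from 12.8 to 17.7 (limma, log2 fold change -3.42 with standard error 0.20, adjusted p = 0.00371). Of 10 Tfr markers 7 fell and none rose (limma), where 9.82% of 16254 genes tested fell and 9.93% rose. At an unadjusted p under 0.05, 9 markers were lower and 0 higher, where 37.6% of genes passed in either direction. The 7 include Foxp3, which defines these cells, at 83.0 to 107 in WT against 5.58 and 6.74 in Cebpa_KO. Y-linked transcripts summed to 151 to 162 in WT and at most 0.0311 in Cebpa_KO, so sex and genotype cannot be told apart. WT replicate 3 differed from its group in many of the genes below, so comparisons are given with it, without it and against it alone. It was set apart for its values in these same genes. Leaving it out narrows the spread within WT, so small p-values without it partly follow from that choice.

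Batf was the most abundant of the 10 genes in WT replicates 1 and 2 and in Cebpa_KO replicates 1 and 2, and only in WT replicate 3 did Junb exceed it. Batf, Junb and Jund were above 100 scaled TPM in every library. The immediate early genes Fos, Jun and Junb were lower in WT replicates 1 and 2 than in WT replicate 3 and both Cebpa_KO libraries. Atf3 was the single member that passed the test of Cebpa_KO against all WT libraries. The promoters of these 5 genes are shown because they carry the 3 patterns, one shared by Fos, Jun and Junb and one each for Atf3 and Batf. Each run is the 250 bases before the transcription start, 5′ to 3′, from RefSeq on GRCm38.p6, a different build from the mm39 of the abundance tables. Capitals mark the motif matches described below.
Fos, chr12:85473640-85473889, plus strand: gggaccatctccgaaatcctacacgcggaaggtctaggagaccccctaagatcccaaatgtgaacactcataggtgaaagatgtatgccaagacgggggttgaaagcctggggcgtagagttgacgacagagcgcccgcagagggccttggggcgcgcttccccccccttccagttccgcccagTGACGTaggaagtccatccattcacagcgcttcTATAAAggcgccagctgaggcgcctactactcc
Jun, chr4:95052223-95052472, minus strand: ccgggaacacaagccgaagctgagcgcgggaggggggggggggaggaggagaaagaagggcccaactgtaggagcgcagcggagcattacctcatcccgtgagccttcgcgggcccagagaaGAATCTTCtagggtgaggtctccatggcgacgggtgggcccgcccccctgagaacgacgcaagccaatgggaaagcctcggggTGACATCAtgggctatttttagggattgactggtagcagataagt
Junb, chr8:84978749-84978998, minus strand: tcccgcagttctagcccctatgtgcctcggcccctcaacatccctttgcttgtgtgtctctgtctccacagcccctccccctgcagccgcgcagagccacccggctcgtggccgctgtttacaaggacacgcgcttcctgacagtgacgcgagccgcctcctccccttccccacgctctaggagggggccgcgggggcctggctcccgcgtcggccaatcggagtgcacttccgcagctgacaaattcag
Atf3, chr1:191183334-191183583, minus strand: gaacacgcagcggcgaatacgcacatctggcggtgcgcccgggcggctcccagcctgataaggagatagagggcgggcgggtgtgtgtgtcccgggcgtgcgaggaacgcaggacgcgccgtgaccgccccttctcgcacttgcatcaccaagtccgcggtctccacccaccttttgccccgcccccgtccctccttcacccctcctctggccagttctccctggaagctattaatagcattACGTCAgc
Batf, chr12:85686470-85686719, plus strand: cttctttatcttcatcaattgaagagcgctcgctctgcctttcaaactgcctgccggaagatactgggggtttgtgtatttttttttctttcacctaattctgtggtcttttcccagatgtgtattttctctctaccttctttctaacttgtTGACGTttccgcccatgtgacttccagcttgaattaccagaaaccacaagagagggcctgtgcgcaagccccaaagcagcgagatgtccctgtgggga

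The motifs were chosen after these sequences had been read, and were searched on both strands in the 250 bases before 32851 RefSeq starts, which include 12 windows of the 10 genes. Fos held the cAMP response element core TGACGT at bases 66 to 61 before its start, and a TATA box (TATAAA) at bases 33 to 28. Atf3 held the same core on the other strand, ACGTCA, at bases 8 to 3, and Batf held it at bases 98 to 93. It was present in 4 of the 10 genes, Maff being the fourth, and in 6.47% of all windows. Jun held TGACATCA at bases 45 to 38, a match of the longer AP-1 pattern TGANNTCA, which was in 3 of the 10 genes and 11.9% of windows. The TGANNTCA pattern also covers the full element TGACGTCA, so in a Maff window it overlaps the core. The heat shock pair GAANNTTC matched at bases 128 to 121 of Jun, and in 2 of the 10 genes and 6.69% of windows. The inverse pair TTCNNGAA was in none of the 10 genes and 7.17% of windows. The AP-1 pattern TGANTCA was in none of the 10 and in 6.75% of windows, and the serum response element (CArG box) in none and 1.47%. Sites more than 250 bases before the start were not searched, so a gene without a match here may hold the element farther away. TATAAA was in 1 of the 10 and 12.4% of windows. The C/EBP pattern TTNNGCAA was in Jund and Maff and in 9.56% of windows. Junb held none of these patterns in its window.

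Fos (ENSMUSG00000021250, chr12:85520664-85524047 of mm39, plus strand), the founding FOS gene, measured 48.2, 66.8 and 619 scaled TPM across WT replicates 1, 2 and 3, against 583 and 617 for Cebpa_KO. WT replicate 3 was above both Cebpa_KO libraries, so the groups overlapped, and WT replicates 1 and 2 lay far below the other 3 libraries. The log2 difference of Cebpa_KO against all WT libraries, 2.24 with standard error 1.11, did not pass (limma, adjusted p = 0.202, 95% interval -0.54 to 5.01). Against WT replicates 1 and 2 Fos rose by 3.37, standard error 0.17 (limma, adjusted p = 0.00381). Against WT replicate 3 alone the difference was -0.052 with a 95% interval of -0.29 to 0.19 (limma, adjusted p = 0.661), a fit that assumes the lone WT library varies like the Cebpa_KO pair. Fos gave between 98.8% and 99.0% of the summed FOS level in every library.

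Fosb (chr7:19036621-19043976, minus strand), a FOS gene induced with Fos, measured 0.291, 0.348 and 4.92 scaled TPM across WT, against 4.05 and 3.78 for Cebpa_KO. WT replicate 3 was the highest library, so the groups overlapped. Its log2 difference was 1.17 (limma, adjusted p = 0.281), and 1.90 without WT replicate 3 (adjusted p = 0.00622). Fosl2, which codes for FRA-2 (chr5:32293145-32315186, plus strand), measured 0.210, 0.454 and 1.90 across WT, against 2.08 and 2.93 for Cebpa_KO. Its groups did not overlap, but WT replicate 3 lay nearer to the Cebpa_KO libraries than to the other WT libraries. Its log2 difference was 1.02 (limma, adjusted p = 0.134), and 1.40 without WT replicate 3 (adjusted p = 0.0159). Fosb and Fosl2 passed the filter, which asks for 1 TPM or more in 2 or more libraries, through WT replicate 3 and the Cebpa_KO libraries. In the fit without WT replicate 3 they entered only through the Cebpa_KO libraries, where they are high. Adding 1 before the log understates their ratios.

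**Figure D1:**
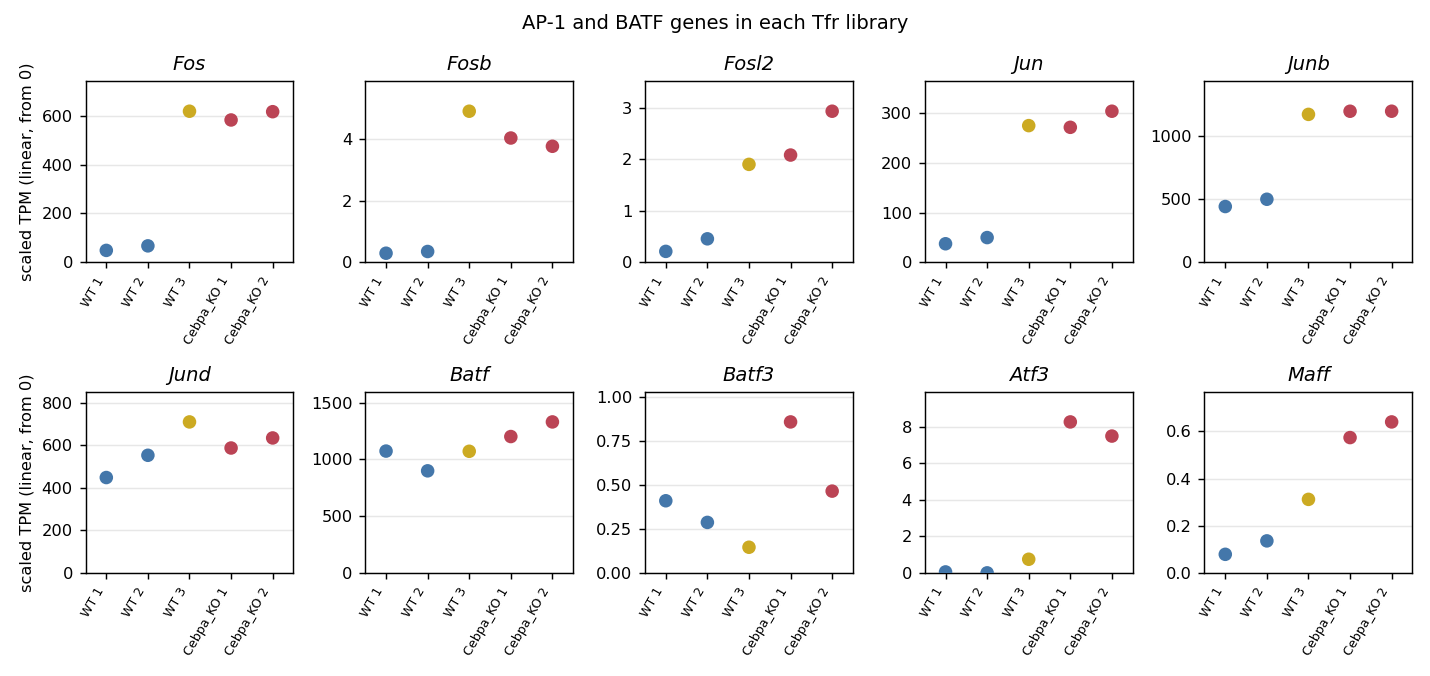
Scaled TPM (y axis, linear from 0, a different scale in each panel) of the 10 genes in each library (x axis), with WT replicates 1 and 2 in blue, WT replicate 3 in yellow and Cebpa_KO in red. Fos, Fosb, Jun and Junb in WT replicate 3 sit with Cebpa_KO, and Batf and Jund vary little. On this linear scale Atf3 in WT replicate 3 sits near the other WT libraries.

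Jun (chr4:94937271-94940459, minus strand), whose protein JNK kinases activate, measured 37.1, 49.5 and 275 scaled TPM across WT, against 272 and 304 for Cebpa_KO. WT replicate 3 lay between the Cebpa_KO libraries, so the groups overlapped. The log2 difference of 1.83 (standard error 0.86) did not pass (limma, adjusted p = 0.184). Without WT replicate 3 it was 2.71, standard error 0.16 (limma, adjusted p = 0.00409), and against WT replicate 3 alone it was 0.057 with a 95% interval of -0.26 to 0.38. Junb, which pairs with BATF in T cells (chr8:85701113-85705347, minus strand), measured 439.5, 497 and 1168 across WT, against 1192 in each Cebpa_KO library. The groups did not overlap, by a margin far smaller than that between WT replicate 3 and the other WT libraries. Its log2 difference was 0.91 (limma, standard error 0.43, adjusted p = 0.187), and 1.35 without WT replicate 3 (standard error 0.09, adjusted p = 0.00479). The Junb record overlaps that of Prdx2 on the other strand by 351 bases. The strand setting of the authors' counting was not given, so the origin of reads there cannot be told apart. Prdx2 ranged from 262 to 304 across WT and measured 385 and 373 for Cebpa_KO, and its part in the Junb level was not tested.

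Jund, the JUN gene that is expressed without stimulation in many cells, measured 448, 553 and 710.1 scaled TPM across WT (chr8:71151599-71153265, plus strand), against 587 and 635 for Cebpa_KO. The groups overlapped, with WT replicate 3 highest and WT replicates 1 and 2 lowest. Its log2 fold change of 0.12 did not pass (limma, adjusted p = 0.684, 95% interval -0.38 to 0.62), nor did that of 0.29 without WT replicate 3 (adjusted p = 0.152). Within the JUN subfamily Jund gave 48.5% and 50.3% of the summed level in WT replicates 1 and 2, 33.0% in WT replicate 3, and 28.6% and 29.8% in Cebpa_KO. Jun gave 4.01% and 4.50% in WT replicates 1 and 2, 12.8% in WT replicate 3, and 13.2% and 14.3% in Cebpa_KO. Junb and Jund were at similar levels in WT replicates 1 and 2, with ratios of Junb to Jund of 0.980 and 0.898, against 1.64 in WT replicate 3 and 2.03 and 1.88 in Cebpa_KO.

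Batf (chr12:85733443-85755861, plus strand) measured 1073, 899 and 1071 scaled TPM across WT, against 1201 and 1330 for Cebpa_KO, between rank 63 and rank 112 of all annotated genes in each library. Both Cebpa_KO libraries were above all WT libraries, and WT replicate 3 matched WT replicate 1. The mean was 1.25 times higher in Cebpa_KO, with 1014 ± 99.95 in WT (SD, n = 3) and 1265 ± 91.0 in Cebpa_KO (SD, n = 2). The log2 fold change of 0.32 (standard error 0.12, 95% interval 0.02 to 0.62) did not pass over all genes (limma, unadjusted p = 0.0383, adjusted p = 0.112). It did not pass without WT replicate 3 either, at 0.36 (adjusted p = 0.0873). With libraries weighted by their spread it was 0.38 and passed (limma with array weights, adjusted p = 0.0486), and the other settings gave adjusted p up to 0.407. Batf3, best known in dendritic cells, was under 1 in every library, at 0.411, 0.288 and 0.146 across WT, against 0.860 and 0.466 for Cebpa_KO, and was not tested. The groups did not overlap, and the difference without the filter was 0.37 (limma, adjusted p = 0.311).

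The ratio of Batf to Fos differed most within WT. Batf was 22.2 and 13.5 times the level of Fos in WT replicates 1 and 2, 1.73 times in WT replicate 3, and 2.06 and 2.16 times in Cebpa_KO. The 10 genes summed to 2047 and 2066 scaled TPM in WT replicates 1 and 2, to 3850.5 in WT replicate 3 and to 3850.9 and 4093 in Cebpa_KO. BATF genes were 52.4% and 43.5% of that sum in WT replicates 1 and 2, 27.8% in WT replicate 3, and 31.2% and 32.5% in Cebpa_KO. FOS genes were 2.38% and 3.27% in WT replicates 1 and 2, 16.2% in WT replicate 3, and 15.3% and 15.2% in Cebpa_KO. These sums and shares describe the libraries and were not tested.

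**Figure D2:**
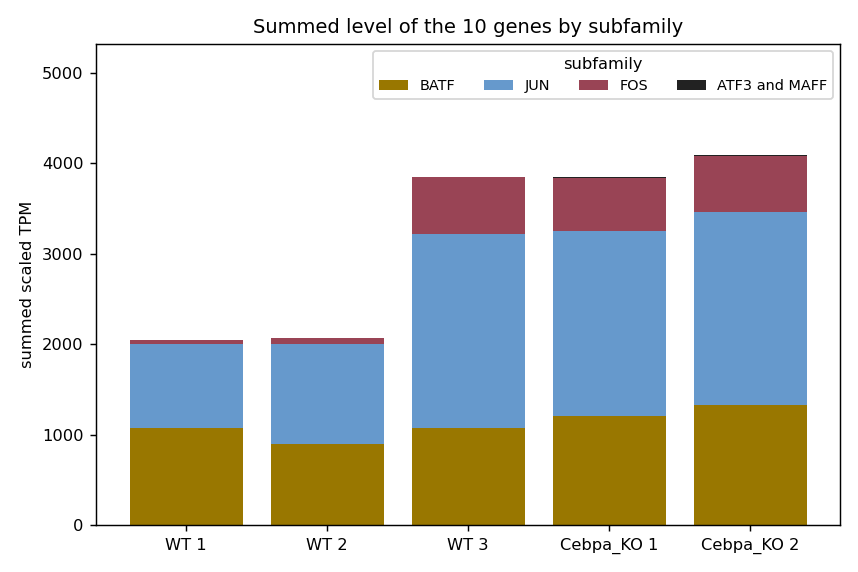
Summed scaled TPM (y axis) of the 10 genes in each library (x axis), stacked by subfamily, with ATF3 and MAFF too low to see in most bars. WT replicates 1 and 2 sum to 2047 and 2066 and the other libraries to 3850.5 or more, and the BATF part runs from 899 to 1330.

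Atf3 (chr1:190902493-190950236, minus strand), a stress-induced gene whose protein pairs with JUN, was at 0.0513 scaled TPM in WT replicate 1, listed at 0 in WT replicate 2, and at 0.746 in WT replicate 3, against 8.27 and 7.50 for Cebpa_KO. The groups did not overlap, WT replicate 3 was below 1 and the Cebpa_KO mean was 10.6 times its level. WT replicate 3 was in turn 29.1 times the mean of WT replicates 1 and 2, a ratio of values near 0. The mean coverage deposited for Atf3 was 0.149, 0 and 2.102 reads per base across WT, 23.0 and 20.4 for Cebpa_KO, where that of Fos ran from 120.4 to 1604. Atf3 rose by 2.86 on the log2(scaled TPM + 1) scale, standard error 0.28 (limma, adjusted p = 0.00715). The difference was 3.12 without WT replicate 3 (limma, adjusted p = 0.00381) and 2.34 against WT replicate 3 alone (adjusted p = 0.0409). Atf3 entered the test only through the Cebpa_KO libraries. The call rested on both of them: with the gene set kept and Cebpa_KO replicate 1 or 2 left out, the difference was 2.80 or 2.92 and did not pass (limma, adjusted p = 0.0723 and 0.0711), where 0.0861% and 0.08% of genes rose. Maff was under 1 in every library, at 0.0787, 0.136 and 0.312 across WT, against 0.574 and 0.641 for Cebpa_KO, and was not tested. The groups did not overlap, and the difference without the filter was 0.46 (limma, adjusted p = 0.112). A gene model on the other strand, Gm56727, overlaps Maff and was higher than it, at 6.59 to 7.52 across WT and 14.6 and 14.2 for Cebpa_KO, and their reads cannot be told apart.

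Of the 10 members 8 were tested, 1 rose and 0 fell (limma, adjusted p under 0.05), where 9.93% of 16254 genes rose and 9.82% fell. At an unadjusted p under 0.05, 2 were higher (Atf3 and Batf) and 0 lower, where 37.6% of genes passed in either direction. With array weights 6 of the 8 rose, where 15.8% of genes rose. Without WT replicate 3, 6 of the 8 rose and 0 fell, where 13.7% of 15935 genes rose and 11.5% fell. The 6 were Fos, Fosb, Fosl2, Jun, Junb and Atf3. Of these, Fosb, Fosl2 and Atf3 entered that fit only through the Cebpa_KO libraries, the group where they are high. Leaving out WT replicate 3, high in Fos, Fosb, Fosl2, Jun and Junb, also removed much of their spread within WT. Against WT replicate 3 alone Atf3 was the 1 member that rose, where 6.53% of 15537 genes rose and 4.16% fell. The median log2 difference over the tested members was 1.10 with all libraries, 1.65 without WT replicate 3 and 0.040 against WT replicate 3. Over all genes tested the medians were 0.012, -0.00042 and -0.0088. In 4 of the 8 tested members, Fosl2, Junb, Batf and Atf3, the Cebpa_KO libraries lay above every WT library, as in 28.7% of genes tested. The same held for the untested Batf3 and Maff. WT replicate 3 was at least 2-fold above WT replicates 1 and 2 on the log2(scaled TPM + 1) scale in 5 members, Fos, Fosb, Fosl2, Jun and Junb, as in 3.8% of genes tested. Atf3 was at 0.77 on that scale, where the 1 added before the log shrinks ratios of values below 1. The Cebpa_KO mean was at least 2-fold above WT replicate 3 in 1 member, Atf3, as in 3.97% of genes tested. These comparisons share libraries, and their values stand side by side without a test of one against another.

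**Figure D3:**
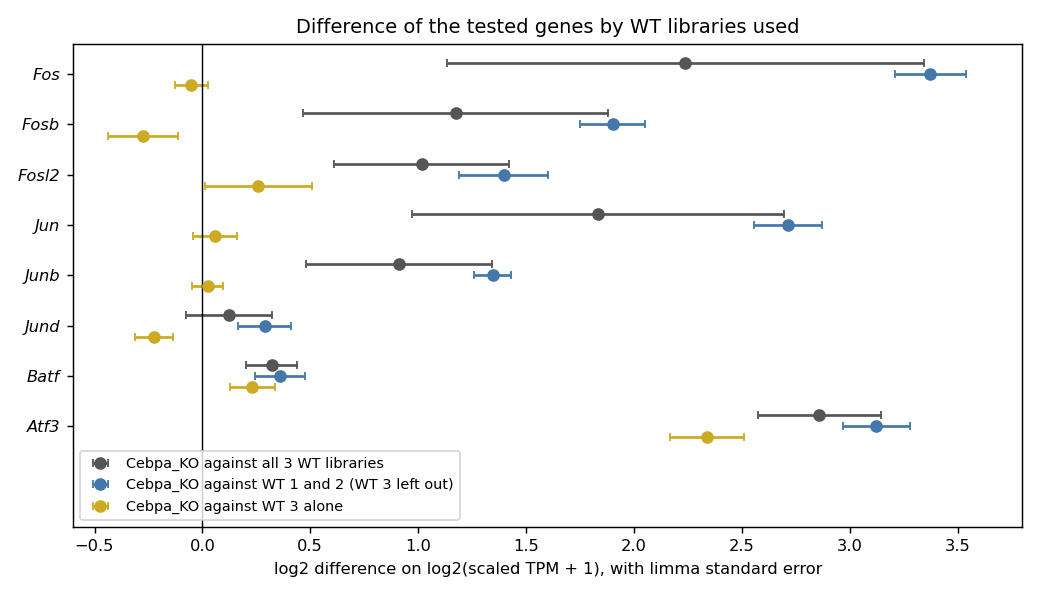
Log2 difference on the log2(scaled TPM + 1) scale (x axis) of the 8 tested genes (y axis), Cebpa_KO against all WT libraries (grey), against WT replicates 1 and 2 (blue) and against WT replicate 3 alone (yellow), with bars of 1 limma standard error. Fos runs from 3.37 in blue to -0.052 in yellow, Atf3 stays at 2.34 or above, and Batf at 0.23 to 0.36.

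Other measured RNA also differed between WT replicate 3 and WT replicates 1 and 2. Hspa1a, an inducible heat shock protein whose reads can be shared with Hspa1b, measured 0.911 and 0.684 scaled TPM in WT replicates 1 and 2, 690.3 in WT replicate 3, and 1147 and 1238 for Cebpa_KO. It did not pass with all libraries (limma, adjusted p = 0.150). Of 10 heat shock genes 4 rose and 0 fell with all libraries (limma), where 9.93% of all genes rose. At an unadjusted p under 0.05, 6 were higher and 0 lower, where 37.6% of all genes passed in either direction. All 10 rose without WT replicate 3, where 13.7% of all genes rose. The median log2 difference over the 10 was 1.16 with all libraries and 1.41 without WT replicate 3. It was still 0.66 against WT replicate 3 alone, with 8 of the 10 differences above 0. The tested AP-1 and BATF members had a median of 0.040 there, with 5 of 8 above 0. The 4 were Hspd1, Hspe1, Hsp90aa1 and Hspa8, by 1.15, 1.48, 1.18 and 0.88 on the log2 scale, with adjusted p of 0.00682, 0.0117, 0.0152 and 0.0499. The call of Hspa8 was lost with either other pseudocount (limma, adjusted p = 0.0507 and 0.0502), no filter (0.178), no trend (0.0622), assembled loci (0.0746) and without WT replicate 1 or 2 (0.118 and 0.113). Markers of erythroid cells (3 genes) summed to 46.4, 33.4 and 376 scaled TPM across WT, against 1145 and 125 for Cebpa_KO. Markers of plasma cells (4 genes) summed to 53.1, 29.6 and 543 across WT, against 216 and 66.1 for Cebpa_KO. Markers of B cells (5 genes) summed to between 65.7 and 112 across WT, against 222 and 48.6 for Cebpa_KO, and myeloid markers (8 genes) to between 41.8 and 145, against 360.3 and 77.3. No marker of these lists was listed at 0. None of these 4 marker lists had a member past the threshold (limma; at an unadjusted p under 0.05, 2 myeloid genes were higher), and without WT replicate 3 the myeloid genes S100a8 and S100a9 did. Markers of CD8 and NK cells (4 genes) summed to between 49.1 and 62.6 across WT, against 27.2 and 25.1 for Cebpa_KO. Of the 3 tested 1 fell, Klrb1c (limma), where 9.82% of all genes fell. Fos was at 583 and 617 in the 2 Cebpa_KO libraries, whose erythroid sums were 1145 and 125. The part of heat shock, handling or other cells in the AP-1 levels was not tested.

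Over 6 related lists, the heat shock genes included, 22 of 86 tested genes passed, where 19.7% of all genes did (9.93% higher and 9.82% lower, as above). Of the 86, 14 passed without WT replicate 1 and 5 without WT replicate 2, where 12.4% and 5.18% of all genes did. Without Cebpa_KO replicate 1 or 2, 0 of 84 passed, where 0.215% and 0.145% of all genes did. Each call below therefore rests on both Cebpa_KO libraries, and few genes of any kind passed without either. Of 23 other basic leucine zipper genes 20 were tested, 2 rose and 2 fell (limma), with a median log2 fold change of 0.08. Jdp2, a repressor that pairs with JUN, measured 24.7, 23.0 and 33.0 scaled TPM across WT and fell to 9.29 and 7.80 (limma, log2 fold change -1.54, adjusted p = 0.00985). Here WT replicate 3 was the highest library and the fall also passed against it alone (adjusted p = 0.0409). Jdp2 lies between Fos and Batf, which are 209 kb apart on chromosome 12. Fosl1, which codes for FRA-1, rose from 0.301, 0.334 and 0.689 to 3.10 and 2.46 (log2 fold change 1.40, adjusted p = 0.0126, limma). All WT libraries were below 1, as for Atf3, and Fosl1 entered the test only through the Cebpa_KO libraries. It did not pass with no filter (limma, adjusted p = 0.0520), without WT replicate 2 (0.0531) or against WT replicate 3 alone (0.0647). Cebpg, a C/EBP relative, rose by 0.76. Ddit3, the stress factor CHOP, had a difference of -0.68 (limma, adjusted p = 0.0351) that did not pass when any 1 library was left out (0.0520 to 0.164) and ran from -0.89 to -0.47 with 1 Cebpa_KO library. Ddit3 has a second record of the same symbol in the tables, and its reads can be split. Batf3 and Atf3 are neighbours too, 61.4 kb apart on chromosome 1.

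Among 5 partners of AP-1 or BATF at shared DNA sites none passed (limma; at an unadjusted p under 0.05, 1 higher and 2 lower), and the median was -0.19. Irf8 measured 36.3, 35.5 and 54.6 scaled TPM across WT, against 85.1 and 56.8 for Cebpa_KO (limma, log2 difference 0.74, adjusted p = 0.101), and rose without WT replicate 3 (adjusted p = 0.0348). The difference was 0.46 without Cebpa_KO replicate 1 and 1.03 without Cebpa_KO replicate 2. Irf8 was highest in Cebpa_KO replicate 1, where the B cell and myeloid marker sums of 222 and 360.3 were highest too, and their part in it was not tested. Nfatc2 and Nfatc3, calcium-regulated NFAT factors, had differences of -0.57 and -0.37, and Nfatc1 of -0.19. Of 17 genes of the kinases that activate AP-1 and of its serum response factor route 1 rose and 4 fell (limma), with a median of -0.14. Over all genes tested, 9.93% rose and 9.82% fell. Map3k1, a kinase upstream of JNK, fell by 0.68 (adjusted p = 0.0250), Mapk14, p38 alpha, by 0.38 (0.0318) and Mapk3, ERK1, by 0.39 (0.0336), while Map2k3, an activator of p38, rose by 0.67 (0.0332). The same 5 genes, Map3k5 being the fifth, passed without WT replicate 3, as did Map2k1, where 13.7% of all genes rose and 11.5% fell. Map3k1, Mapk14, Mapk3 and Map2k3 did not pass without WT replicate 1 (limma, adjusted p = 0.0584, 0.0542, 0.0546 and 0.0545). Nor did they without WT replicate 2 (0.0794, 0.0894, 0.0917 and 0.0925). Against WT replicate 3 alone the median of the 17 was -0.32, and these 4 differed by -0.59, -0.37, -0.38 and 0.47.

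Of 16 genes known to need or bind AP-1 or BATF in T cells 15 were tested, 2 rose and 4 fell (limma), with a median of 0.35. Over all genes tested, 9.93% rose and 9.82% fell. Il21, a cytokine of follicular T cells, rose by 2.00 (standard error 0.16, adjusted p = 0.0055), and the chemokine receptor gene Ccr8 by 1.04 (adjusted p = 0.0232). The inhibitory receptor gene Ctla4 fell by 0.84 (adjusted p = 0.0169) and the costimulator gene Icos by 0.71 (0.0207). Without WT replicate 3, 6 rose and 3 fell, where 13.7% of all genes rose and 11.5% fell. Against WT replicate 3 alone the median of the 15 was 0.18. Of 19 other immediate early genes 2 rose and 1 fell (limma), with a median of 0.37, where 9.93% of all genes rose and 9.82% fell. Btg2, an antiproliferative gene, rose to 127 and 123 scaled TPM from 64.9, 55.4 and 62.9 (limma, log2 fold change 1.02, adjusted p = 0.00682), and Myc, a growth regulator, rose by 0.91 (0.0128). Egr2, induced by T cell receptor signals, fell by 0.43 (0.0207), and Egr1 measured 149.9, 165 and 189.8 across WT, against 124 and 123 for Cebpa_KO (log2 difference -0.43, adjusted p = 0.0546). In both Egr genes the Cebpa_KO libraries were the lowest. Without WT replicate 3, 11 of the 19 rose and 3 fell, where 13.7% of all genes rose and 11.5% fell. Against WT replicate 3 alone the median of the 19 was -0.21.

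The genes whose log2 profile over the 5 libraries, each centred on its own mean, was nearest to that of Fos were Ppp1r15a, Rgs2 and Ccl3. They lay at root mean square distances of 0.26, 0.32 and 0.34, where Jun lay at 0.34 and the median of 11267 genes was 1.68. Ppp1r15a, which codes for the stress protein GADD34, measured 80.2, 99.8 and 597 scaled TPM across WT, against 811 and 864 for Cebpa_KO. Rgs2, a brake on G protein signalling, measured 13.2, 13.5 and 108 across WT, against 102 and 92.3 for Cebpa_KO. Ccl3, a chemokine gene, measured 0.801, 0.796 and 12.5 across WT, against 12.7 and 23.0 for Cebpa_KO. Their order over the libraries follows from the choice by likeness to Fos and was not tested.

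**Figure D4:**
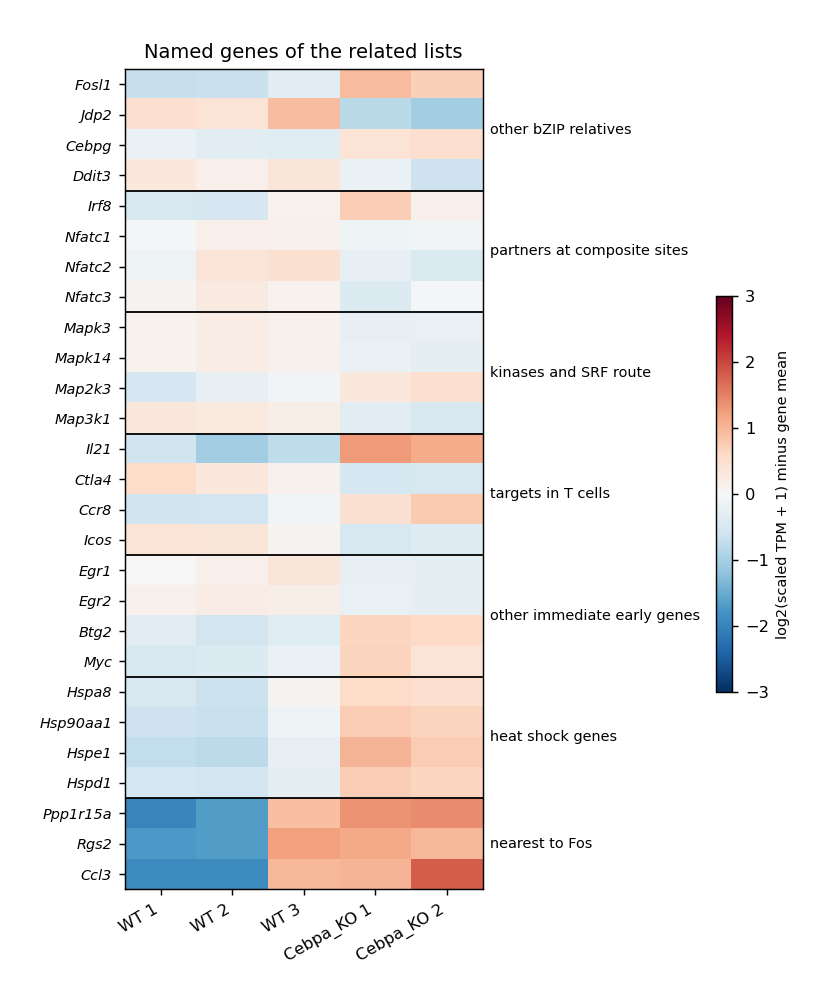
Log2(scaled TPM + 1) minus the gene's mean over the 5 libraries (colour) for the named genes of 6 related lists and the 3 genes nearest to Fos (y axis) in each library (x axis). WT replicate 3 has the colour of Cebpa_KO in Ppp1r15a, Rgs2 and Ccl3 and that of the other WT libraries in Jdp2, Il21, Btg2 and Myc.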

How the data were processed

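RNA-seq libraries of pooled sorted cells were made with SMART-Seq v4 and Nextera XT kits, per the labels' protocols. STAR 2.7.11b, StringTie 2.1.3b and the build mm39 are listed in the submitters' processing notes. Their options, the annotation release and the strand setting were not given in the sources used. The deposited TPM column is treated as a score, since the authors' tables hold assembled loci (total 1000000) beside annotated genes whose total is 96.7% to 97.6% of that. Annotated rows alone were used. The FPKM deposited by the authors gave only depth, and their coverage signal gave depth and the coverage printed for Atf3 and Fos. No counts were used, so no count model, counting interval or detection floor applies.

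TPM was scaled by each library's median ratio to gene-wise geometric means (genes at 1 or more throughout). Genes reaching 1 TPM in 2 or more of the 5 libraries were tested on log2(scaled TPM + 1) with limma 3.58.1 (R 4.3.3, intensity trend) and Benjamini-Hochberg adjustment over all genes at 0.05. Alternatives changed the pseudocount, filter, scaling, limma settings, library set, replicate block or gene model. Folds of low genes are understated by the pseudocount. The test was also run on simulated data. Their spread was drawn independently for each gene, so they do not cover a library that differs in many genes together. Members and lists were chosen with earlier results of these data known. Named are the members, Cebpa, up to 4 genes per list with the smallest p, and the 3 genes with a mean of at least 5 nearest to Fos. Hspa1a, Prdx2, Gm56727, Klrb1c, S100a8, S100a9, Map2k1 and Map3k5 were named after their values were seen. Assembled loci carry no gene name and were matched by position and strand in place of the name planned.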

Additional observations from a re-analysis of the deposited data

How the results depend on the processing

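The count of members past the threshold was 1 with other pseudocounts, filters, scalings, no trend, robust estimation or assembled loci. It was 6 with array weights (Atf3, Batf, Fos, Fosl2, Jun and Junb), where 15.8% of genes rose, and 0 to 6 when 1 library was left out. It was 6 without WT replicate 3 and 0 without either Cebpa_KO library, also with the full gene set kept, a setting chosen after seeing the data. With a replicate block it was 6 (Atf3, Fos, Fosb, Fosl2, Jun and Junb), where 8.36% of genes rose. WT replicate 3 has no Cebpa_KO partner and drops out of that estimate. The replicate numbers are not known to pair the libraries. Deviations from the group mean of same-numbered libraries correlated at -0.18 for number 1 and 0.27 for number 2 over 16254 genes. With 2 Cebpa_KO libraries their deviations mirror each other, so these correlations cannot decide whether the numbers pair the libraries. Against WT replicate 3 alone Fos, Fosb, Jund and Rgs2 turned to -0.052, -0.27, -0.22 and -0.16, and without WT replicate 1 Jund turned to -0.038 (0.29 without WT replicate 3). Of the related lists 22 of 86 tested genes passed, where 19.7% of all genes did. The count was 9 of 90 with no filter (4.07% of all genes), 43 with array weights (30.9%), 40 with the replicate block (14.8%) and 14 against WT replicate 3 alone (10.7%). It was 0 to 47 when 1 library was left out: 47 without WT replicate 3 (25.1%), 14 without WT replicate 1 (12.4%), 5 without WT replicate 2 (5.18%) and 0 without Cebpa_KO replicate 1 or 2 (0.215% and 0.145%). The fall of Cebpa lay between -4.79 and -1.83 over all settings and between -3.54 and -3.27 when 1 library was left out, and without Cebpa_KO replicate 2 it was -3.54 and did not pass (limma, adjusted p = 0.0512). Against WT replicate 3 alone Cebpa was below the filter. The difference of Atf3 lay between 1.29 with a pseudocount of 5 and 5.09 with one of 0.1, and passed in both. With 2 and 3 libraries the intervals of Fos, Jun and Junb against all WT libraries include 0 and also differences larger than those printed.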

Other observations

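In the loci assembled per library, the Batf locus began at the annotated start in WT replicate 2 and 1.07 kb before it in WT replicate 1. It began 7.89 kb before it in WT replicate 3 and 8.24 and 8.33 kb before it in Cebpa_KO. A locus for Atf3 was assembled in WT replicate 3, at 0.914 TPM, and in Cebpa_KO, at 8.26 and 7.54 TPM, and in neither of the other WT libraries. Assembly depends on the reads of each library, and these spans were not tested.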
